A study of Mus musculus with 31 samples.

Results

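The genes described here are the mouse histone genes of the Hist1 to Hist4 clusters, which encode the core histones H2A, H2B, H3 and H4 and the linker histone H1 used to package newly made DNA. They were taken by symbol, as every gene whose name starts with Hist1h, Hist2h, Hist3h or Hist4. This gave 67 of the 31053 gene symbols in each of 3 count tables. A mean of 5 or more counts over a table left 60 members in the Cyp11a1 table, 54 in the GR table and 46 in the in vitro table, 44 of them in all 3 tables and 61 in at least 1.

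The 31 RNA-seq libraries came from mouse T helper cells that carry the 2D2 T cell receptor or were cultured as wild-type Th17 cells. In the Cyp11a1 experiment, naive 2D2+ T cells from Cyp11a1 WT (C57/B6) mice or Cyp11a1 cKO mice were turned into Th17Hom cells in culture and transferred into Rag1 KO recipients, hosts that lack their own T and B cells but keep NK and myeloid cells, in which experimental autoimmune encephalomyelitis (EAE) was induced. At the peak of disease 2000 CNS-infiltrating 2D2+ cells were sorted per library, which gave 4 WT and 6 cKO libraries. The GR experiment had the same layout, with donors that were WT or cKO for GR, the glucocorticoid receptor encoded by Nr3c1, and 5 WT and 4 cKO libraries. Both genotypes in each experiment therefore share the 2D2 receptor, the Rag1 KO host and the disease. In the in vitro experiment, Th17Inf cells from C57/B6 WT mice were treated for 2 days with Dex (dexamethasone, a synthetic glucocorticoid), with TGF-b1, with both or with neither, with 3 libraries of 2000 live cells per group. The Cre driver of the cKO alleles is not given in the sources used here. The labels do not say whether replicate libraries came from separate mice or cultures, so a p-value measures only the spread between these libraries.

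Total counts per library ran from 2769203 to 5623305, and the histone genes held between 0.024% and 0.180% of them. A small set of predicted genes with Gm symbols held 11.7% to 55.7% of a library's counts. Levels below are therefore given as CPM, a gene's counts scaled to 1000000 counts of the tested genes after TMM scaling. The targeted genes were read first. No count of Cyp11a1 was found in any of the 4 WT libraries, and among the 6 cKO libraries library 2 held 4 counts and the others 0, so this gene gave no check of those labels. Nr3c1 lay at 13.0 to 18.8 CPM in the GR WT libraries and at 6.76 to 10.2 CPM in the GR cKO libraries. T cell markers were present in every library. The myeloid marker list (21 genes of macrophages and microglia) summed to 563 to 1489 CPM in the Cyp11a1 table, 6501 to 14889 CPM in the GR table and 140 to 181 CPM in vitro, where Adgre1, C1qa, Csf1r and Itgam were at 0.

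As background, most of these genes are replication-dependent. They are transcribed in bursts while DNA is copied in S phase, and their mRNAs are the one class in animal cells that normally ends in a short stem-loop in place of a poly(A) tail. The stem-loop is bound by Slbp, and the mRNAs are made and destroyed with the progress of S phase. Histones such as H2A.Z (H2afz) and H3.3 (H3f3a, H3f3b) are encoded outside the clusters by genes with ordinary polyadenylated mRNAs that are used throughout the cell cycle. The labels give the molecule as polyA RNA, and the libraries were made with a modified SMART-Seq2 protocol. The values here thus count the molecules of each histone gene that entered polyadenylated libraries, and the ratio of these to tailless mRNA was not measured. Dividing T cells hold more of these mRNAs than resting T cells, and in bulk samples fewer dividing cells and less histone mRNA per cell cannot be told apart.

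The stem-loop is visible in the annotated transcripts (GENCODE M21, GRCm38). The letters GGNNNTTNTNNGNNCC, read on the transcript strand with a stem of 6 base pairs, occurred in 46 of 70 annotated histone cluster genes and in 48 of 21810 other protein-coding genes (0.220%). Among the 70, Hist1h2aj, Hist1h2al and Hist3h2bb-ps are annotated as pseudogenes. The stem-loops of members that the results turn on are printed with the 12 bases before each. Capitals mark the 16 bases of the stem-loop.
Hist1h2ap: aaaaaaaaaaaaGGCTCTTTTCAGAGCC
Hist1h2ao: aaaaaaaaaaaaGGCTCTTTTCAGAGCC
Hist1h2ab: aaccaaaacaaaGGCTCTTTTCAGAGCC
Hist2h2aa2: agctcctaaaaaGGCTCTTTTCAGAGCC
Hist3h2a: acagacaccaaaGGCTCTTTTCAGAGCC
Hist2h3c2: attccccacaaaGGCTCTTTTCAGAGCC
Hist1h4i: atgctacttaaaGGCCCTTTTTAGGGCC

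The window of Hist1h2ap lies at chr13:21833029-21833056 on the minus strand, in the 3′ UTR of a single-exon gene (chr13:21833026-21833507) whose annotated transcript stops 3 bases after the stem-loop. Hist1h2ao (chr13:21810886-21810913, plus strand) has the same 28 letters and stops 31 bases after them. Hist1h2ap and Hist1h2ao were set apart by a run of 12 A directly before the stem. Among the 70 annotated histone cluster genes only Hist1h2ac, whose longest run lies 1187 bases before its transcript's end, had a run as long or longer, with 15 A. The Hist1h2ab window lies at chr13:23751560-23751587 (plus strand), and its transcript stops 11 bases later. In other members the annotated transcript goes on past the stem-loop. Hist2h3c2 (chr3:96238485-96238512, minus strand) continues for 377 bases, Hist1h4i (chr13:22040966-22040993, minus strand) for 330 bases, and Hist3h2a (chr11:58955160-58955187, plus strand) for 1643 bases. Hist2h2aa2 (chr3:96239784-96239811, minus strand) stops 35 bases after its stem-loop. The 12 H4 genes with a stem-loop all used stem letters that began GGCCC or GGTCC, and H2A and H2B genes used stems that began GGCTC.

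Members were grouped by these ends. In the Cyp11a1, GR and in vitro tables respectively, members whose transcript ends within 100 bases of the stem-loop numbered 22, 20 and 18 and held 73.3%, 65.4% and 70.2% of all member CPM. Members whose transcript goes on past it numbered 20, 18 and 13 and held 11.4%, 14.6% and 8.92%. Members with no stem-loop in the annotated transcript numbered 18, 16 and 15 and held 15.3%, 20.1% and 20.8%. Several of these transcripts are annotated with little beyond the coding sequence, such as Hist1h3i (411 bases, 408 coding) and Hist1h2ak (393 bases, 390 coding). A stem-loop past such an annotated end could not be found, so this group is not one of mRNAs known to lack it. A polyadenylation signal in the last 40 bases was found in 10, 9 and 7 of the members that go on past the stem-loop, and in 1 of the members that end at it in each table. Most histone CPM in these polyadenylated libraries was thus assigned to genes whose annotated transcript stops at the stem-loop and has no polyadenylation signal near its end.

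That majority was 1 gene. Hist1h2ap, an H2A gene, had 62.3%, 53.0% and 59.7% of member CPM in the Cyp11a1, GR and in vitro tables, and between 30.4% and 68.2% of member counts in single libraries. Per kilobase of transcript its mean level was 1632, 878 and 1265 CPM per kb. The next highest member on this scale, the H3 gene Hist2h3b (chr3:96268654-96269141, plus strand), had 175, 164 and 190 CPM per kb. Hist1h2ao lay at 51.0, 41.1 and 36.4 CPM per kb and Hist2h3c2, another H3 gene, at 43.2, 32.4 and 38.0 CPM per kb. Hist1h2ap and Hist2h3b were the 2 highest members per kilobase in each table. The genes at the third and the fourth rank differed between the tables: Hist1h2ao and Hist2h3c2 in the Cyp11a1 table, Hist2h2aa2 (41.2 CPM per kb) and Hist1h2ao in the GR table, and Hist1h2ah (42.2 CPM per kb) and Hist1h4m (38.5 CPM per kb) in vitro.

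How far a count belongs to 1 histone gene depends on the sequence, because the proteins and much of the mRNA are nearly identical between copies. Mates were 38 bases long, so the share of a transcript's 38-base windows that occur in no other annotated transcript was computed. Both strands were searched, and transcripts of genes other than histones were counted too. It was 6.74% for Hist1h2ap, 6.32% for Hist1h2ao, 0% for Hist2h3b and Hist2h2aa2, 36.0% for Hist2h3c2, 67.4% for Hist1h4i and 98.6% for the H1 gene Hist1h1b. At least 50% of windows were unique in 22 of 60, 19 of 54 and 14 of 46 members, and these held 8.30%, 10.4% and 6.27% of member CPM. Under 10% were unique in 15, 14 and 13 members. Predicted genes read on the opposite strand enter some of these values. Every window of Hist2h3b occurred in Gm20628, every window of Hist2h2aa1 in Gm20633 and every window of Hist2h2aa2 in Gm20632. Counts of the less unique genes depend on how the authors' counting shared reads between copies and with such overlapping genes. Their split between single genes is uncertain. Hist2h2aa1 and Hist2h2aa2 are an example, since neither has a unique window. Their coefficients of variation within a group had medians of 46.6% (7 groups, since Hist2h2aa1 was at 0 in the TGF-b1 group) and 36.8% (8 groups), and that of their summed CPM had a median of 15%. The sum varied less than either copy in 5 of 8 groups. Of 5 other pairs of similar genes, the median for the sum was below that of both genes in Hist1h2ao with Hist1h2ap (15.75%, where Hist1h2ap alone had 15.99%), Hist1h2bq with Hist1h2br (31.6%) and Hist1h4m with Hist1h4n (30.4%). It was not below both in Hist1h3h with Hist1h3i (47.5%, against 46.9% for Hist1h3i alone) and Hist2h3b with Hist2h3c2 (29.5%, against 23.7% for Hist2h3c2 alone).

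**Figure D1:**
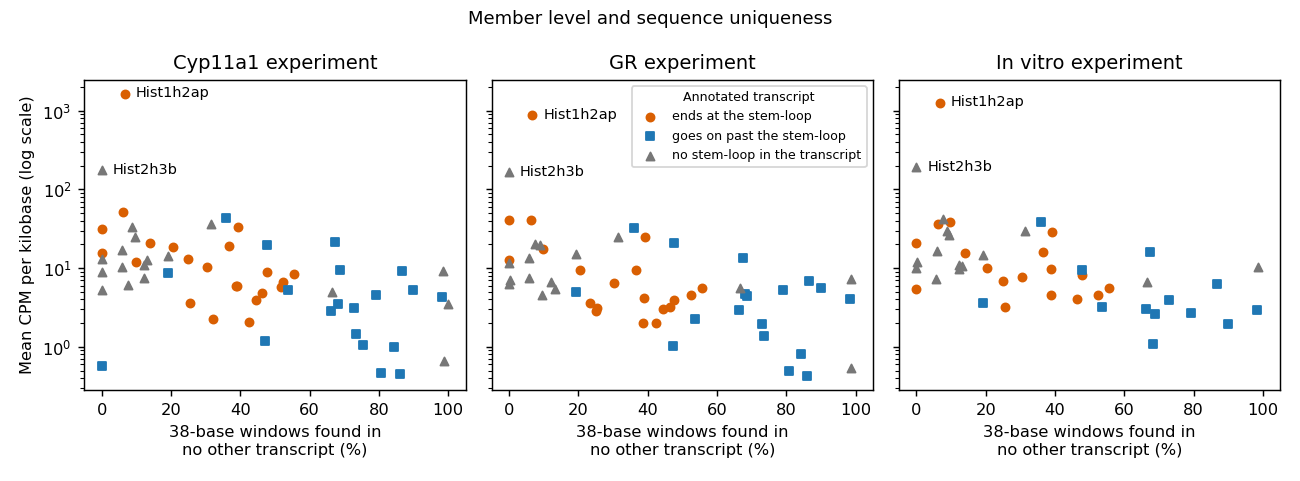
Mean level of each member in CPM per kilobase of transcript (vertical, log scale) against the percent of its 38-base windows found in no other annotated transcript on either strand (horizontal), 1 panel per table, 1 point per member, marked by where the annotated transcript ends. Hist1h2ap stands above all other members at 1632, 878 and 1265 CPM per kb with 6.74% unique windows, followed by Hist2h3b at 175, 164 and 190.

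Promoters were compared for shared motifs, and a relation between a motif and the level of a member was not tested. RefSeq promoter windows (GRCm38.p6) matched 62 histone cluster genes, and motifs were searched on both strands in the 250 bases before the start. CCAAT occurred in 51 of 62 (34.5% of all 27025 promoters): in 6 of 6 H1, 18 of 18 H2A, 16 of 16 H2B and 8 of 10 H3 genes, and in 3 of 12 H4 genes. TATAAA occurred in 29 of 62 (46.8%, against 13.0% of all promoters). The octamer ATTTGCAT occurred in 7 of 18 H2A and 6 of 16 H2B genes and in no H1, H3 or H4 gene (1.61% of all promoters). None of the 3 motifs contains another, though they can overlap at their ends. Some H2A and H2B genes are neighbours on opposite strands with overlapping windows, such as Hist1h2ad (chr13:23574231-23574380) and Hist1h2bf (chr13:23574208-23574357). A motif there can count for both genes, so the H2A and H2B counts are not counts of separate promoters. The 150 bases before the start are shown for the most abundant member and for the member that passed the test in culture. Capitals mark the motifs.
Hist1h2ap: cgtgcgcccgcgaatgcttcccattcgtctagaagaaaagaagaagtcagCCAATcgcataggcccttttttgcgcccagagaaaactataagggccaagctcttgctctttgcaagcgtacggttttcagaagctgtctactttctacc
Hist1h1b: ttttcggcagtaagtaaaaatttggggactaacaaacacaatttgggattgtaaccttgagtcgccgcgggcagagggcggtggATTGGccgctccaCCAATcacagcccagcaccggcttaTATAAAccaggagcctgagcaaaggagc
These windows lie at chr13:21833476-21833625 for Hist1h2ap and chr13:21780626-21780775 for Hist1h1b, both on the minus strand. RefSeq and GENCODE place the start of Hist1h2ap differently, so that the last 32 bases of its window lie inside the GENCODE transcript, while the Hist1h1b window ends directly before its transcript. The ATTGG in the Hist1h1b window is CCAAT read on the other strand. Hist1h1b holds TATAAA and Hist1h2ap does not hold these letters.

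Replication state was read from 32 S phase genes, among them the helicase subunits Mcm2 to Mcm7, the sliding clamp Pcna and the ribonucleotide reductase subunits Rrm1 and Rrm2, and from 24 G2/M genes such as Mki67 and Top2a. In the Cyp11a1 WT libraries 1 to 4 the summed S phase genes stood at 961, 1772, 1634 and 1057 CPM. The 6 Cyp11a1 cKO libraries stood at 1666, 1286, 1501, 1681, 1523 and 1520 CPM. WT libraries 1 and 4 lay below every other library of this experiment. In the GR experiment the WT libraries 1 to 5 stood at 597, 1097, 1684, 1546 and 469 CPM and the cKO libraries 1 to 4 at 567, 896, 409 and 400 CPM. The GR WT libraries thus ran from 469 to 1684 CPM, with WT libraries 1 and 5 among the cKO values. The cultured libraries lay between 1158 and 1369 CPM. No difference between genotypes passed an exact two-sided permutation test over libraries, with 1529 ± 143 (SD, n = 6) in Cyp11a1 cKO and 1356 ± 407 (n = 4) in WT (p = 0.305, adjusted over 14 tests 0.610). In the GR experiment they were 568 ± 232 (n = 4) in cKO and 1079 ± 545 (n = 5) in WT (exact permutation p = 0.127, adjusted 0.467).

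Hist1h2ap followed these sums from library to library. In the GR experiment Hist1h2ap stood at 256, 740, 956, 840 and 136 CPM in WT libraries 1 to 5 and at 222, 495, 82.3 and 78.0 CPM in cKO libraries 1 to 4. The order of the 9 libraries by Hist1h2ap was the same as their order by summed S phase genes. On log2 values Pearson's r was 0.97 and Spearman's rho was 1 over the 9 GR libraries (exact permutation p for rho 5.51e-06, the smallest these libraries can give, adjusted over 24 relations 6.61e-05). Without the 2 libraries farthest from the median S phase sum r was 0.99. In the Cyp11a1 experiment Hist1h2ap stood at 411, 851, 884 and 441 CPM in WT libraries 1 to 4 and at 1020, 696, 938, 1062, 746 and 820 CPM in the cKO libraries. Here r was 0.95 and rho 0.77 over 10 libraries (permutation adjusted p 0.00168 and 0.0257), and r was 0.68 without WT libraries 1 and 4. The 9 or 10 points share the library's scaling factor, and both quantities are parts of 1 library.

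Across the abundant members the relation held in the same direction for most and in the other direction for a pair. In the GR experiment the adjusted permutation p for r was under 0.05 for 9 of 13 members examined. The r values were 0.97 for Hist2h3b, 0.96 for Hist2h3c2, 0.94 for Hist1h2ab, 0.91 for Hist1h4i, 0.86 for Hist1h2ak and 0.76 for Hist1h2ao, with rho between 0.85 and 1. Hist2h2aa2 and Hist3h2a, both H2A genes, ran against the S phase sum, with r of -0.79 (rho -0.88, adjusted exact permutation p for r 0.00587) and -0.75 (rho -0.80, adjusted p 0.0430). Without the 2 farthest libraries r was -0.75 for Hist2h2aa2 and -0.57 for Hist3h2a, and 3 of 13 members then had an adjusted p under 0.05. The summed myeloid markers moved against the S phase sum in these libraries: they were lowest in WT libraries 3, 4 and 2 (6501, 8717 and 9455 CPM), which had the 3 highest S phase sums, and lay between 11418 and 14889 CPM in the other 6. The part of the myeloid signal in the values of Hist2h2aa2 and Hist3h2a was not tested. Neither Hist2h2aa2 nor its near-identical copy Hist2h2aa1 has a unique window, so the split of reads between them is uncertain. Predicted genes on the opposite strand share these windows too. Of the windows of Hist3h2a 68.1% were unique, and the others were shared with Trim17.

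In the Cyp11a1 experiment 6 of 11 members had an adjusted p under 0.05. Hist1h4i, an H4 gene, had r of 0.97 and rho of 0.96 (permutation p for r 1e-05, the smallest 100000 draws can give), and 0.87 without WT libraries 1 and 4. Hist1h2ab had r of 0.78 and 0.84 without them. Hist2h3b (0.78), Hist2h3c2 (0.73) and Hist1h2ao (0.70) rested on WT libraries 1 and 4, since r was 0.32, -0.00 and -0.11 when both were left out. With both left out 1 of 11 members had an adjusted p under 0.05, with WT library 1 left out 2 and with WT library 4 left out 3. Hist2h2aa2 had an r of -0.07 in this experiment, where it stood at 12.7, 10.5, 23.3 and 23.6 CPM in WT and between 10.3 and 23.1 CPM in cKO.

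**Figure D2:**
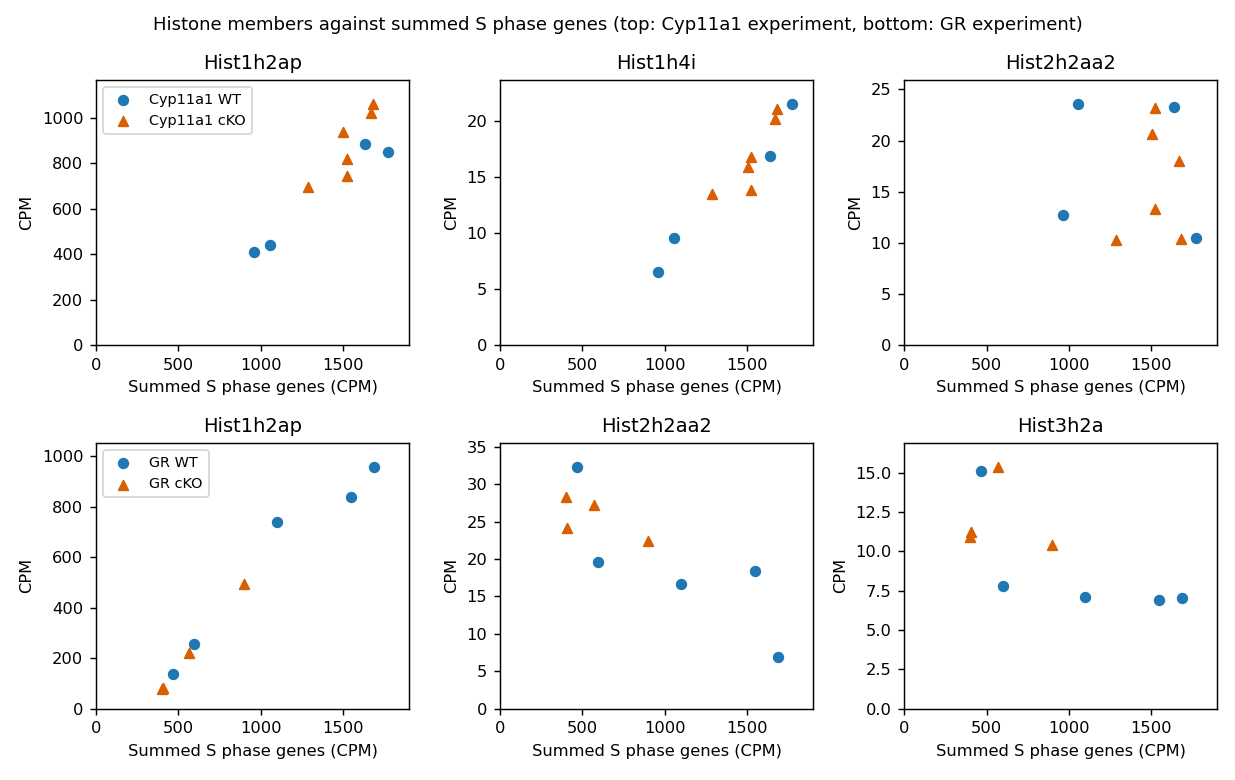
CPM of single members (vertical) against the summed CPM of 32 S phase genes (horizontal), 1 point per library, circles for WT and triangles for cKO, with the Cyp11a1 experiment above and the GR experiment below. Hist1h2ap rises with the S phase sum in both experiments (r 0.95 and 0.97), while Hist2h2aa2 and Hist3h2a run downward in the GR experiment (r -0.79 and -0.75).

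**Figure D3:**
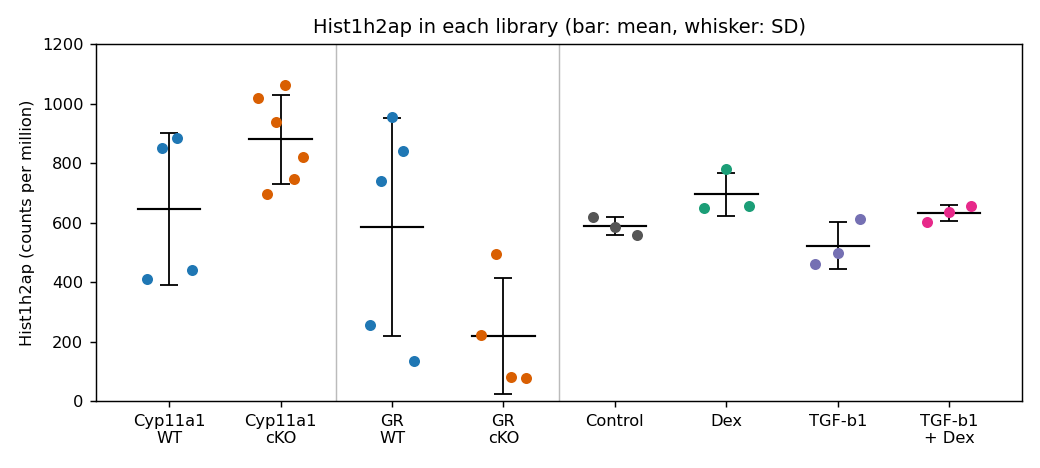
Hist1h2ap in CPM (vertical) in each of the 31 libraries by group (horizontal), with the mean as a bar and the SD as whiskers. GR WT libraries spread from 136 to 956 CPM and overlap the GR cKO range of 78.0 to 495 CPM, while the cultured groups lie between 460 and 779 CPM.

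The comparison of Cyp11a1 cKO with WT asks whether cells that cannot use Cyp11a1, the enzyme of the first step of steroid synthesis, differ in the brain and spinal cord. No histone gene passed the edgeR quasi-likelihood test at an adjusted p under 0.05 among the 51 members tested (0.178% of the 10125 genes tested passed). DESeq2 called 1, Hist1h2ak, among 63 genes in all. At an unadjusted p under 0.05, 14 of 51 members were higher in cKO and none lower, where 4.05% of all genes were higher at that level. The fitted log2 fold change was positive for 42 of the 51 and negative for 9, with a median of 0.57 against 0.00 for all genes. Over all 60 members, fitted without the filter on low counts per group, the median was 0.55 and 48 were positive. The summed CPM of all members was 693, 1321, 1296 and 770 in WT libraries 1 to 4 and ran from 1202 to 1660 in the 6 cKO libraries. The low values in WT are those of libraries 1 and 4, which also had the lowest S phase sums. Without those libraries the median over the tested members was 0.41, and with the S phase sum as a covariate it was 0.46. Both settings were chosen after the data were seen.

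Linker histones H1 bind the DNA between nucleosomes. In cKO the 4 tested H1 genes had positive fold changes with a median of 0.64. Hist1h1b had 3.6, 6.58, 6.26 and 3.97 CPM in WT and 9.55, 4.90, 9.46, 7.90, 10.2 and 6.53 CPM in cKO (log2 fold change 0.64 ± 0.24 SE, edgeR adjusted p 0.501). Hist1h1c, which has a polyadenylation signal, had 6.14, 4.45, 6.78 and 7.42 CPM in WT and 6.92 to 14.9 CPM in cKO (0.64 ± 0.25, edgeR adjusted p 0.520). In both genes the groups overlapped.

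H2A and H2B form the dimers that flank the core of the nucleosome. The 15 tested H2A genes had a median log2 fold change of 0.44, 11 of them positive. Hist1h2ap had 646 ± 255 CPM in WT (n = 4) and 880 ± 149 CPM in cKO (n = 6), a log2 fold change of 0.44 ± 0.24 (edgeR adjusted p 0.717), and 0.02 without WT libraries 1 and 4. Hist1h2ak had the smallest p of any member. Its values were 7.41, 6.39, 15.5 and 5.83 CPM in WT and 20.0, 14.9, 16.8, 22.2, 17.0 and 15.4 CPM in cKO (log2 fold change 0.98 ± 0.25, edgeR adjusted p 0.187). WT library 3 of Hist1h2ak lay inside the cKO range, and without this library the log2 fold change was 1.42 with an edgeR adjusted p of 0.00477. The 13 tested H2B genes had a median of 0.57, 11 positive. Hist1h2bg had 5.71, 12.4, 8.87 and 7.68 CPM in WT and 9.89 to 19.8 CPM in cKO (0.73 ± 0.24, edgeR adjusted p 0.394). Hist3h2a and Hist2h2aa2 had fold changes of 0.07 and -0.12, near that of the median gene.

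H3 and H4 form the tetramer at the centre of the nucleosome. The 9 tested H3 genes had a median of 0.57, 7 positive. Hist2h3b had 48.2, 86.5, 82.3 and 46.4 CPM in WT and 94.6, 65.9, 137, 115, 114 and 65.9 CPM in cKO (0.57 ± 0.25), and Hist2h3c2 had 13.8, 40.1, 39.3 and 37.1 CPM in WT and 41.0 to 63.0 CPM in cKO (0.67 ± 0.24). Each cKO value of Hist2h3c2 lay above each WT value, and the edgeR adjusted p was above 0.05, as for every member. The 10 tested H4 genes had a median of 0.70, 9 positive. Hist1h4d, whose windows were 86.6% unique, had 9.31, 9.87, 7.13 and 6.36 CPM in WT and 11.5, 13.0, 12.3, 11.5, 10.6 and 13.6 CPM in cKO (0.56 ± 0.16, edgeR adjusted p 0.288). This gene varied little within a group and had an r of 0.35 with the S phase sum. The 18 tested members with at least 50% unique windows had a median of 0.53, and the 33 others 0.63.

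The other genes of replication and histone supply are given beside the members, and no difference between the lists was tested. Of the S phase list, 29 of 32 had positive fold changes with a median of 0.17, and of the G2/M list 21 of 24 with a median of 0.18. None of either list passed the test. The 3 most abundant S phase genes, Mcm6, Pcna and Rrm2, had log2 fold changes of 0.09, 0.24 and 0.27. The 9 tested replacement histone genes had a median of 0.03, and the 3 most abundant, H2afz, H3f3a and H3f3b, had log2 fold changes of 0.05, -0.01 and -0.04. The 12 tested factors of histone mRNA 3′ end formation had a median of 0.02, and Slbp had 72.8 ± 10.6 CPM in WT and 83.1 ± 6.97 CPM in cKO. Cpsf3 and Srrt, the next most abundant of these factors, had fold changes of 0.00 and 0.09. The myeloid list moved beside the histone genes: 18 of 19 tested genes had positive fold changes with a median of 0.73, its sum was 563 to 686 CPM in WT and 875 to 1489 CPM in cKO, and H2-Eb1 (log2 fold change 2.14), Fcer1g (1.02), C1qb (0.92) and C1qa (0.89) rose in cKO by edgeR with adjusted p of 0.0192, 0.0366, 0.0266 and 0.0266. The summed markers of NK and CD8 T cells, 4 of 6 of them tested, ran from 60.7 to 282 CPM in WT and from 162 to 440 CPM in cKO, and none passed. The 6 Th17 markers had negative fold changes with a median of -0.71, 3 of them with an unadjusted p under 0.05 and none past the threshold, and their sum was 229 to 318 CPM in WT and 129 to 224 CPM in cKO. The part of these differences in the histone values was not tested.

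The GR comparison asks whether loss of the glucocorticoid receptor in the transferred cells changed them at the same site. No histone gene passed among 36 members tested by edgeR, and 0% of 10597 genes passed in this comparison. DESeq2 called 1 member, Hist1h2bm, among 3 genes in all. At an unadjusted p under 0.05, 6 of 36 members were lower in cKO and none higher, where 4.74% of all genes were lower at that level. Fold changes were negative for 28 and positive for 8 of the 36, with a median of -0.86 against -0.00 for all genes. Over all 54 members, fitted without the filter on low counts per group, the median was -0.68 and 12 were positive. Leaving out 1 library at a time moved the median of the tested members between -1.34 (without cKO library 2) and -0.50 (without WT library 4). Without WT library 3 it was -0.52. With the S phase sum as a covariate, chosen after the data were seen, it was -0.01.

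The summed CPM of all members was 492, 1327, 1620, 1449 and 375 in GR WT libraries 1 to 5 and 502, 903, 271 and 252 in cKO libraries 1 to 4. WT libraries 1 and 5 lay within the cKO range. Hist1h2ap had 586 ± 366 CPM in WT (n = 5) and 219 ± 196 CPM in cKO (n = 4), a log2 fold change of -1.41 ± 0.67 (edgeR adjusted p 0.580). Hist2h3b had 44.2, 139, 183, 168 and 25.6 CPM in WT and 34.1, 98.3, 15.5 and 12.0 CPM in cKO (-1.47 ± 0.71), and Hist2h3c2 had 17.6, 63.8, 79.4, 58.3 and 8.41 CPM in WT and 20.0, 37.6, 6.57 and 5.32 CPM in cKO (-1.38 ± 0.69). Without cKO library 2 the 3 log2 fold changes were -2.21 for Hist1h2ap, -2.47 for Hist2h3b and -2.15 for Hist2h3c2. At the other end of leaving out 1 library they were -1.13, -1.18 and -1.08. In these 3 genes the same libraries were low, WT 1 and 5 and cKO 1, 3 and 4. With the S phase sum as a covariate, chosen after the data were seen, their log2 fold changes were -0.07, -0.06 and 0.09. These genes had r of 0.97, 0.97 and 0.96 with that sum in the same libraries, so the fit left little variation for the genotype. A part of replication in the difference was not tested.

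The 3 members of smallest p were H2B genes. Their r with the S phase sum was 0.60 for Hist1h2br, 0.58 for Hist1h2bf and 0.67 for Hist1h2bm (adjusted exact permutation p 0.103, 0.113 and 0.0806). Hist1h2br had 7.25, 19.7, 12.2, 10.5 and 11.6 CPM in WT and 4.07, 5.44, 5.41 and 4.79 CPM in cKO (log2 fold change -1.29 ± 0.28, edgeR adjusted p 0.580). Hist1h2bf had 1.99, 3.65, 2.97, 7.68 and 5.61 CPM in WT and 1.25, 1.65, 1.16 and 1.06 CPM in cKO (-1.69 ± 0.43, edgeR adjusted p 0.580). In both genes every cKO value lay below every WT value, WT library 5 was not low, and the S phase covariate left -1.12 and -1.46. Both genes were named for their small p, so the lack of overlap between groups is no separate support. How often groups do not overlap over all genes tested was not computed. Reads of Hist1h2br and its near-identical copy Hist1h2bq can hardly be told apart. Their summed CPM ran from 11.8 to 29.7 in WT and from 6.95 to 13.9 in cKO, so in the sum the groups overlapped. Hist1h2bm had 0, 14, 24, 17 and 10 counts in WT and 0 counts in all 4 cKO libraries. Its total in WT was 65 counts, and no fold is given because 1 group was at 0. Hist1h2br has 0.164% unique windows and Hist1h2bm 46.4%, so their counts depend on the sharing of reads among H2B copies.

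By histone type the median log2 fold change was -0.15 for 3 H1 genes, -0.89 for 10 H2A, -0.79 for 11 H2B, -1.19 for 6 H3 and -0.39 for 6 H4 genes. By transcript end it was -1.43 for the 12 tested members that end at the stem-loop (11 negative). It was -1.10 for the 12 with no stem-loop in the annotated transcript (10 negative) and -0.16 for the 12 that go on past the stem-loop (7 negative). The 12 tested members with at least 50% unique windows had a median of -0.27 and the 24 others -1.10. In the Cyp11a1 comparison the corresponding medians were 0.58, 0.65 and 0.52 by transcript end. Members on the positive side in GR cKO included Hist3h2a with 7.79, 7.09, 7.05, 6.91 and 15.1 CPM in WT and 15.3, 10.4, 11.2 and 10.9 CPM in cKO (0.47 ± 0.25). They also included Hist2h2aa2 with 19.6, 16.6, 6.86, 18.4 and 32.3 CPM in WT and 27.2, 22.4, 24.1 and 28.2 CPM in cKO (0.47 ± 0.32). For both, the WT value of library 5, the WT library with the lowest S phase sum, was the highest of the 5.

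**Figure D4:**
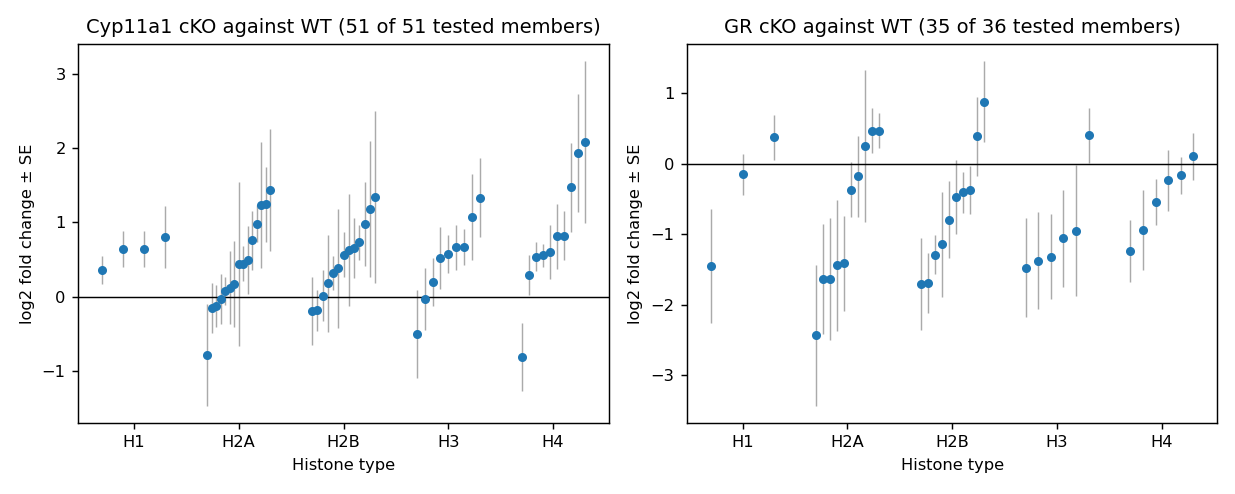
Log2 fold change ± SE of tested members (vertical) by histone type (horizontal), for Cyp11a1 cKO against WT and GR cKO against WT, sorted within a type. Hist1h2bm, with an SE above 1.5, is left out of the GR panel. Of the fold changes 42 of 51 were positive in the Cyp11a1 comparison and 28 of 36 negative in the GR comparison, and none passed the adjusted test.

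The S phase list in the GR comparison had 30 of 31 negative fold changes with a median of -0.93, and the G2/M list 24 of 24 with a median of -1.27, and none passed. Mcm6 had 95.1 ± 43.1 CPM in WT and 57.9 ± 18.3 in cKO (-0.72), Pcna 75.2 ± 34.5 and 44.9 ± 15.1 (-0.74) and Mcm3 75.7 ± 39.8 and 39.8 ± 16.2 (-0.93). The replacement histones had a median of -0.21. H2afz had 643 ± 215 CPM in WT and 433 ± 164 in cKO (-0.57 ± 0.29, edgeR adjusted p 0.580), while H3f3a (370 ± 26 and 345 ± 44.4 CPM) and H3f3b (235 ± 17.3 and 230 ± 11.7 CPM) had fold changes of -0.10 and -0.03. Genes of 3′ end formation had a median of -0.20, with Slbp at 51.2 ± 20.0 CPM in WT and 37.6 ± 7.45 CPM in cKO (-0.45), Cpsf3 at 0.16 and Srrt at -0.39. Histone chaperones, which carry histones to DNA, had a median of -0.24. All 21 tested myeloid genes had positive fold changes with a median of 0.30, and the sum was 14078, 9455, 6501, 8717 and 14646 CPM in WT and 12132, 11418, 14889 and 14767 CPM in cKO. WT libraries 1 and 5, with little histone mRNA, had more myeloid signal than the other 3 WT libraries. The summed NK and CD8 T cell markers ran from 40.2 to 80.3 CPM in WT and from 31.7 to 53.9 CPM in cKO, and the Th17 markers from 40.4 to 162 and from 108 to 133 CPM. The part of these in the histone values was not tested.

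In cultured Th17Inf cells the summed CPM of all members was 997 ± 64.7 in control, 1154 ± 123.4 with Dex, 880 ± 161 with TGF-b1 and 1057 ± 58.2 with both (SD, n = 3 each). The ranges overlapped between control and each treatment. The summed H1 genes had 25.5, 20.2 and 18.3 CPM in control, 15.4, 21.3 and 15.3 with Dex, 15.9, 14.7 and 12.1 with TGF-b1 and 11.2, 11.5 and 16.8 with both. Every library given TGF-b1 lay below every control library in this sum. Hist1h2ap had 619, 585 and 560 CPM in control, 651, 779 and 656 with Dex, 460, 498 and 611 with TGF-b1 and 603, 635 and 657 with both. Its log2 fold change was 0.24 for Dex (edgeR adjusted p 0.284), -0.17 for TGF-b1 (adjusted p 0.463) and 0.10 for both (adjusted p 0.635). Among 43 tested members the median log2 fold change was -0.07 for Dex, -0.17 for TGF-b1, -0.04 for both against control, 0.06 for both against TGF-b1 alone and -0.20 for both against Dex alone. Members went in both directions: 20 were positive and 23 negative for Dex, 15 and 28 for TGF-b1, and 20 and 23 for both against control. The 3 comparisons with control share the 3 control libraries.

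One member passed in 1 of these comparisons. Hist1h1b, an H1 gene at chr13:21779883-21780625 (minus strand), fell with TGF-b1 and Dex together, and 6.25% of 10332 genes passed in that comparison. At an unadjusted p under 0.05 were 5 of 43 members and 18.8% of all genes. Its values were 14.7, 12.0 and 10.2 CPM in control, 4.94, 10.4 and 5.20 with Dex, 6.04, 6.94 and 5.45 with TGF-b1 and 4.76, 4.90 and 7.37 with both. Every library given TGF-b1 lay below every control library, and Dex library 2 reached the control range. The log2 fold change was -1.06 ± 0.29 for both (edgeR adjusted p 0.046), -0.98 ± 0.29 for TGF-b1 (adjusted p 0.101) and -0.81 ± 0.28 for Dex (adjusted p 0.203). The call for both was lost without any single control library or without library 1 or 2 of the combined group (edgeR adjusted p 0.063 to 0.157), and with DESeq2 (0.0984). The annotated transcript of 743 bases, 669 of them coding, has no stem-loop, and a stem-loop past its annotated end could not be found. Of its windows 98.6% are unique, so few of its reads could come from a copy. The summed S phase genes stood at 1317 ± 45.5 CPM in control and 1277 ± 107 with both (n = 3 each, exact permutation p 0.8, where 3 against 3 libraries allow no p below 0.1).

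With Dex alone no member passed by edgeR and DESeq2 called 0 (1.83% of all genes passed by edgeR). At an unadjusted p under 0.05 were 8 of 43 members and 13.2% of all genes. The smallest p belonged to Hist1h2bl, an H2B gene with 12.2% unique windows, at 7.0, 5.72 and 8.52 CPM in control, 1.54, 2.19 and 1.63 with Dex, 0.756, 1.45 and 4.54 with TGF-b1 and 8.5, 3.5 and 4.21 with both (Dex log2 fold change -1.96 ± 0.50, edgeR adjusted p 0.070). Its 3 Dex libraries lay below the 3 libraries with both agents. Hist1h2bb, another H2B gene, had 9.10, 5.18 and 4.38 CPM in control and 3.09, 1.09 and 0 with Dex (-2.10, edgeR adjusted p 0.281). The H3 genes Hist2h3b and Hist2h3c2 lay on the other side with 0.55 ± 0.27 and 0.47 ± 0.20 (edgeR adjusted p 0.426 and 0.324). With TGF-b1 alone no member passed by edgeR and DESeq2 called 1, Hist2h2aa1 (3.29% of all genes passed by edgeR). Over all 10332 genes DESeq2 called 302. At an unadjusted p under 0.05 were 6 of 43 members and 15% of all genes. Hist1h2bl had -1.60 (edgeR adjusted p 0.110), and without TGF-b1 library 3 it was -2.60 with an adjusted p of 0.0179. Hist1h2bg, an H2B gene, had 9.45, 6.27 and 9.74 CPM in control, 7.41, 6.29 and 5.53 with Dex, 4.16, 4.63 and 3.93 with TGF-b1 and 2.04, 5.6 and 4.63 with both, which gave -0.99 for TGF-b1 (edgeR adjusted p 0.111) and -1.03 for both (adjusted p 0.058). Each library of Hist1h2bg with TGF-b1 lay below each control library.

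Hist2h2aa1, with no unique window, had 9, 10 and 40 counts in control, 20, 20 and 17 with Dex, 0, 0 and 0 with TGF-b1 and 0, 0 and 27 with both, so no fold is given against the TGF-b1 group. Its near-identical copy Hist2h2aa2 had 41, 28 and 23 counts in control, 25, 31 and 19 with Dex, 31, 36 and 71 with TGF-b1 and 40, 47 and 44 with both. Where the first copy was at 0, the second held counts.

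The combined treatment was also set against each agent. Against TGF-b1 alone no member passed by edgeR and DESeq2 called 1 (0.532% of all genes passed by edgeR). The unadjusted p was under 0.05 for 4 of 43 members and 9.85% of all genes. The member called by DESeq2, among 94 genes in all, was Hist1h3i. This H3 gene had 24.5, 6.81 and 6.82 CPM in control, 21.9, 22.2 and 5.20 with Dex, 4.91, 2.31 and 4.24 with TGF-b1 and 15.6, 16.8 and 14.3 with both (2.04 ± 0.64, edgeR adjusted p 0.279), and 8.82% of its windows are unique. Hist1h2ap had 0.27 ± 0.10 (adjusted p 0.347). Against Dex alone no member passed by edgeR and DESeq2 called 0 (2.62% of all genes passed by edgeR). The unadjusted p was under 0.05 for 4 of 43 members and 13% of all genes. Hist1h2bl had 1.55 ± 0.51 (edgeR adjusted p 0.172) and Hist1h2bq, an H2B gene with 9.57, 5.75 and 6.50 CPM with Dex and 6.12, 14.0 and 23.8 CPM with both, had 1.07 (adjusted p 0.274). Of the windows of Hist1h2bq 0% are unique. The summed CPM of Hist1h2bq and its near-identical copy Hist1h2br had a mean of 31.3 with Dex and 30.7 with both. Hist1h2ag had 25, 54 and 14 counts with Dex and 0, 8 and 0 with both.

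The interaction asks whether the effect of Dex differs in the presence of TGF-b1. No member passed by edgeR and DESeq2 called 0 (0% of all genes passed by edgeR). The unadjusted p was under 0.05 for 2 of 43 members and 5.34% of all genes. Hist1h2bl had an interaction of 3.15 ± 0.70 on the log2 scale (edgeR adjusted p 0.572). Hist1h2bc, an H2B gene with 4.90, 4.91 and 6.57 CPM in control, 6.79, 7.11 and 12.0 with Dex, 10.6, 11.0 and 6.66 with TGF-b1 and 7.82, 5.6 and 8.63 with both, had -0.97 (edgeR adjusted p 0.869). Some members varied widely within a treatment. Hist1h2ah, an H2A gene with 7.61% unique windows, had 0, 21.3 and 51.4 CPM in the control libraries, and Hist1h4m, an H4 gene, 20.6, 9.81 and 29.5 CPM.

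**Figure D5:**
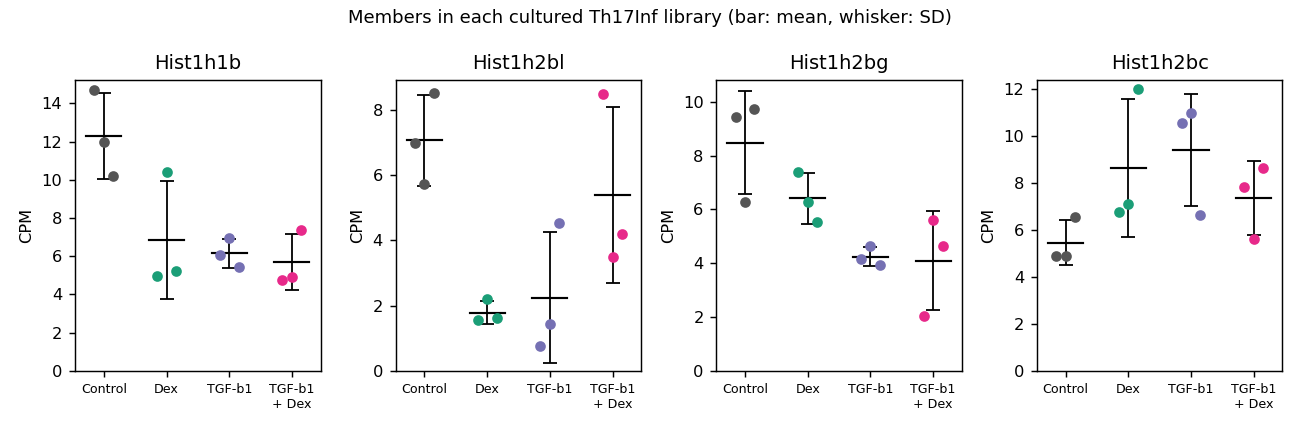
CPM of 4 members (vertical) in each library of the 4 culture groups (horizontal), with the mean as a bar and the SD as whiskers, n = 3 per group. Hist1h1b lies at 10.2 to 14.7 CPM in control and at 4.76 to 7.37 CPM in the 6 libraries given TGF-b1, while Hist1h2bl is low with Dex alone (1.54 to 2.19 CPM) and Hist1h2bc overlaps between groups.

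Of the genes linked to replication and histone supply, 3 passed in culture. They were 1 of 32 S phase genes, 1 of 17 histone chaperones and 1 of 9 replacement histones. Over all genes 3.29% passed with TGF-b1, 6.25% with both and 2.62% with both against Dex alone. Rfc3, a subunit of the clamp loader and the most abundant S phase gene there after Mcm6 and Mcm3, fell with TGF-b1 (log2 fold change -0.91, edgeR adjusted p 0.00687), with both (-1.07, adjusted p 0.00133) and with both against Dex alone (-0.76, adjusted p 0.0268). Hat1, an acetyltransferase of newly made histone H4, fell with both (-0.51, edgeR adjusted p 0.0158), and H2afj, an H2A gene outside the clusters, fell with both against Dex alone (-0.53, adjusted p 0.0458). No G2/M gene and no gene of histone mRNA 3′ end formation passed in any of the comparisons. The median log2 fold change of the 32 S phase genes was 0.10 for Dex, 0.01 for TGF-b1 and 0.03 for both.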

How the data were processed

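The authors deposited 3 tables of whole-number read counts per gene symbol, with 1 column per library; no column was left without a library. RSEM 1.3.3 and the genome build mm10 are named, with no role stated, in the submitters' processing notes; how reads that fit several genes were shared, and whether strand was used, is not given in the sources used here. Libraries were grouped by their labels. Each table was fitted with edgeR 4.0.16 (R 4.3.3, limma 3.58.1): filterByExpr, TMM scaling, the robust quasi-likelihood F test, and Benjamini-Hochberg adjustment over all tested genes at a threshold of 0.05. The 12 cultured libraries were fitted together. SE was taken from the fold change and F. Summed S phase and G2/M genes were compared on log2 CPM by exact two-sided permutation over libraries. Relations with the S phase sum used exact permutation for 9 libraries and 100000 draws for 10 (numpy 2.4.6, scipy 1.17.1), adjusted over 24 relations. DESeq2 1.42.0 and other filters, scalings and left-out libraries were tried as alternatives. The edgeR and DESeq2 steps were tested on simulated data.

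Members tested were fewer than all members, since filterByExpr asks for enough counts in at least as many libraries as the smallest group. Precision is limited by depth: 1 count was worth 0.165 to 0.378 CPM. The histone genes and the gene lists (S phase, G2/M, replacement histones, 3′ end factors, chaperones, and markers of myeloid, NK and CD8 T, and Th17 cells) were chosen with earlier results of these data known. Named are members past the threshold in a comparison, the 10 members of highest mean CPM in a table and, where none passed, the 3 of smallest p; of the other lists, genes past the threshold and the 3 most abundant of the S phase, replacement histone and 3′ end lists. Hist1h1c, Hist1h2ac, pairs of similar genes and the values of Hist3h2a, Hist2h2aa2, Hist2h3b and Hist2h3c2 outside their own rule were added after their values were seen. Transcripts, stem-loops and unique windows came from GENCODE M21 transcripts (GRCm38), and promoters from RefSeq (GRCm38.p6).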

Additional observations from a re-analysis of the deposited data

Results flagged for a closer look

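Sets of values of named members were checked for a library that stood apart from the rest of its group, and 4 of 59 sets held one. Chance alone gives about 1 in 20. Hist2h3c2 had 13.8 CPM in Cyp11a1 WT library 1, where the other 3 WT libraries had 37.1 to 40.1. Hist1h2ak had 15.5 CPM in Cyp11a1 WT library 3, where the others had 5.83 to 7.41. Hist3h2a had 15.1 CPM in GR WT library 5, where the others had 6.91 to 7.79, and 15.3 CPM in GR cKO library 1, where the others had 10.4 to 11.2.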

How the results depend on the processing

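Numbers of members past the threshold were recomputed under each alternative. They stayed the same in 104 recomputations and moved in 19. Against 0 members by edgeR, DESeq2 gave 1 in the Cyp11a1, GR and TGF-b1 comparisons and in both agents against TGF-b1. Dex had 1 without a filter on low counts and 1 with its groups fitted alone, and both agents against TGF-b1 had 1 with its groups fitted alone. For both agents against control, 1 member became 0 with total counts only, with a mean of 5 or more counts, with DESeq2 and with the S phase sum as a covariate, an alternative chosen after seeing the data, as was leaving out both Cyp11a1 WT libraries of lowest S phase sum. Leaving out 1 library gave 0 to 2 members for Cyp11a1 and for both agents against control, 0 to 1 for TGF-b1 and 0 to 1 for both against Dex. Why the calls moved was not tested. After group means were taken off each gene, same-numbered libraries of different groups correlated at -0.238 to 0.125. Differently numbered libraries were not compared, so pairing by replicate number was not settled, and the main test used none. With the replicate block both agents against control had 0 members past the threshold in place of 1, and no other count changed.

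Over all genes, total counts only gave 12 calls in place of 18 for Cyp11a1, 2 in place of 0 for GR, 55 in place of 189 for Dex, 177 in place of 340 for TGF-b1, 385 in place of 646 for both, 15 in place of 55 for both against TGF-b1 and 132 in place of 271 for both against Dex. DESeq2 gave 63 calls for Cyp11a1, 3 for GR, 94 for both against TGF-b1 and 6 for the interaction, and no filter gave 33 for Cyp11a1 and 4 for the interaction.

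With the S phase covariate the GR log2 fold change of Hist2h3c2 changed sign to 0.0946. The interaction of Hist2h2aa1 ran from -0.102 to 6.38 when 1 library was left out. The count of members related to the S phase sum fell from 9 to 3 (GR) and from 6 to 1 (Cyp11a1) without both farthest libraries, and ran from 2 to 7 (Cyp11a1) without 1 library. Without both farthest libraries r in the Cyp11a1 experiment changed sign for Hist2h3c2 (-0.00246), Hist1h2ao (-0.111), Hist2h2aa2 (0.0398), Hist1h2ak (-0.253), Hist1h3i (-0.134), Hist1h2bg (-0.284) and Hist1h4d (-0.491), and r of Hist2h2aa2 ran from -0.297 to 0.175 without 1 library. Differences of phase sums (log2) that crossed 0 without 1 library were those of G2/M for Cyp11a1 (-0.0454 to 0.403) and both against Dex (-0.0309 to 0.0466), and those of S phase for Dex (-0.00579 to 0.050), both against control (-0.0955 to 0.0223), both against Dex (-0.109 to 0.00886) and both against TGF-b1 (-0.00499 to 0.113). Depth limits the low members: all but Hist1h2ap, Hist2h3b, Hist2h3c2 and Hist1h2ao had a mean under 100 counts in every table.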
